A study of Mus musculus with 6 samples.

Results

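Interferon-inducible GTPases were examined in the vestibular sensory epithelium of mice after chronic exposure to 3,3'-iminodipropionitrile (IDPN), a nitrile that damages vestibular hair cells (HCs). The 10 genes were chosen by symbol out of 52636 in the deposited table, and were the Mx proteins Mx1 and Mx2, the guanylate-binding proteins Gbp2, Gbp3, Gbp6 and Gbp7, and the immunity-related GTPases Igtp, Irgm1, Irgm2 and Iigp1. All animals were male 129S1/SvImJ mice, aged 2 to 4 months by the study's methods. The 3 IDPN animals received 30 mM IDPN in their drinking water for 8 weeks, the 3 Control animals drank plain water, and tissue was taken on the last day of exposure. Each bulk RNA-seq library held the 2 utricles and 6 cristae of 1 animal, so replicates were animals. No batch division was named in the labels, but the Control title codes shared a beginning that no IDPN title had. The title codes of IDPN 2 and IDPN 3 shared another beginning, which that of IDPN 1 did not have.

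Interferons are secreted proteins that bind receptors on neighbouring cells, activate JAK kinases and STAT transcription factors, and switch on a large antiviral and antimicrobial programme. Large GTPases are among the most strongly induced products of that programme in mice. Mx proteins are dynamin-like GTPases that restrict viruses, while the guanylate-binding proteins (GBPs) and the immunity-related GTPases (IRGs) assemble on membranes that surround intracellular bacteria and parasites. The GBP and IRG genes are classically regarded as targets of interferon gamma, and many also respond to type I interferons.

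Libraries held between 40474847 and 43566332 estimated counts. HC markers were present in all 6 libraries, and 6 of 10 of them were downregulated after IDPN, where 3.42% of all genes tested were. Pou4f3, an HC transcription factor, had 6831, 6387 and 5843 normalized counts (counts divided by the library's DESeq2 size factor) in Control 1 to 3, against 3105, 3261 and 3155 in IDPN 1 to 3. Red cell and macrophage genes were also present. The libraries therefore mixed several cell types, and in such bulk samples fewer cells of a type and less RNA per cell cannot be told apart.

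The promoters of these genes are described first, since the letters that interferon-activated factors bind are known. The interferon-stimulated response element (ISRE), bound by IRF9-containing complexes and by other IRF proteins, was searched as GAAANNGAAA. The gamma-activated site (GAS), the element known from interferon gamma responses, was searched as TTCNNNGAA. Both strands were read in RefSeq windows of 300 bases (250 before to 50 after the annotated start, GRCm38.p6). The table held a window for 6 of the 10 genes, and none for Mx1, Mx2, Gbp6 and Iigp1. All 6 genes held an ISRE in a window, against 3.99% of the 27025 genes with a window. Gbp7, Igtp and Irgm2 also held a GAS in the same window. Of all genes with a window, 9.55% held a GAS and 0.540% held both motifs in the same window. Of the 10 dynamin and atlastin relatives, GTPases of the same fold class that are not known as interferon targets, none held either motif in a window. Among genes with a window, an ISRE was also present in 2 of 2 other GBP genes, 4 of 8 other listed IRG genes and 11 of 20 interferon genes. It was therefore not particular to the 6 genes. A match is a match of letters only, and binding was not measured.

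The 120 bases upstream of each start are shown 5′ to 3′ on the gene's strand, with the matched ISRE and GAS letters in capitals, because they let the 6 promoters be compared base by base. They lie at chr3:142620543-142620662 (Gbp2, plus strand), chr3:142559924-142560043 (Gbp3, plus), chr3:142530216-142530335 (Gbp7, plus), chr11:58199436-58199555 (Igtp, plus), chr11:58214857-58214976 (Irgm2, plus) and chr11:48871421-48871540 (Irgm1, minus).
Gbp2: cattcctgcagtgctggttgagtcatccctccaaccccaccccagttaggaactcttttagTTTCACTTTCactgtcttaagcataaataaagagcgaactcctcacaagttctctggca
Gbp3: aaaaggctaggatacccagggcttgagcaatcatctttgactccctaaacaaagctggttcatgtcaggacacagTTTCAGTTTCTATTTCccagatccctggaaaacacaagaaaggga
Gbp7: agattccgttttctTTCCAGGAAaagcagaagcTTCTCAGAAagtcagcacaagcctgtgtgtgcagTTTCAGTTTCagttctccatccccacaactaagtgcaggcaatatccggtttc
Igtp: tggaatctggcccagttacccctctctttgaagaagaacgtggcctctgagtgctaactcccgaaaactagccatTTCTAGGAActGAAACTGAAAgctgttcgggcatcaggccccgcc
Irgm2: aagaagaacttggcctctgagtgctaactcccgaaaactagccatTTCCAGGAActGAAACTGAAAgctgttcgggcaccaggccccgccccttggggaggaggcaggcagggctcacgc
Irgm1: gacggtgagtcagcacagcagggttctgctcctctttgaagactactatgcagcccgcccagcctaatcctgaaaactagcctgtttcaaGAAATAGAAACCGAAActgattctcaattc
In the GBP promoters the ISRE was read on the opposite strand, where it appears above as runs of TTTC, and in the IRG promoters on the gene's own strand. Gbp3 and Irgm1 each held 2 ISRE matches that overlap, from 45 to 30 bases and from 30 to 15 bases upstream of the start. Gbp7 held its ISRE 53 to 44 bases upstream and its GAS matches 106 to 98 and 87 to 79 bases upstream. Igtp and Irgm2 shared an unbroken run of 38 bases. Among the other 14 pairs of these 6 stretches the longest shared run was at most 13 bases (Gbp3 and Gbp7). In Igtp the GAS ended 37 bases and the ISRE began 34 bases upstream. In Irgm2 the same pair stood at 67 and 64 bases. All these distances are from the RefSeq start, which differs from the GENCODE start for some genes. By the GENCODE spans given below, the stretches of Irgm1 and Irgm2 lie inside the gene and those of Gbp2 and Gbp3 partly so.

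After IDPN, 6 of the 10 GTPase genes were upregulated and none was downregulated. A gene was called at a fold change above 1.5 and a DESeq2 adjusted p under 0.05 (Padj, Benjamini-Hochberg over all 17650 genes with a Padj), which 2.32% of the genes tested passed in the upward direction. Those called were Mx2, Gbp3, Gbp6, Igtp, Irgm1 and Irgm2. All 10 log2-Fold_Change values were above 0, with a median of 1.45, against 0.02 over all genes tested. For 8 of the 10 genes every IDPN animal exceeded every Control animal, which held for 11.1% of all genes tested. By the edgeR quasi-likelihood test, 1.02% of the genes tested were upregulated and 5 of the 9 GTPase genes it tested were, Irgm2 being the difference (edgeR adjusted p = 0.0548).

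**Figure D1:**
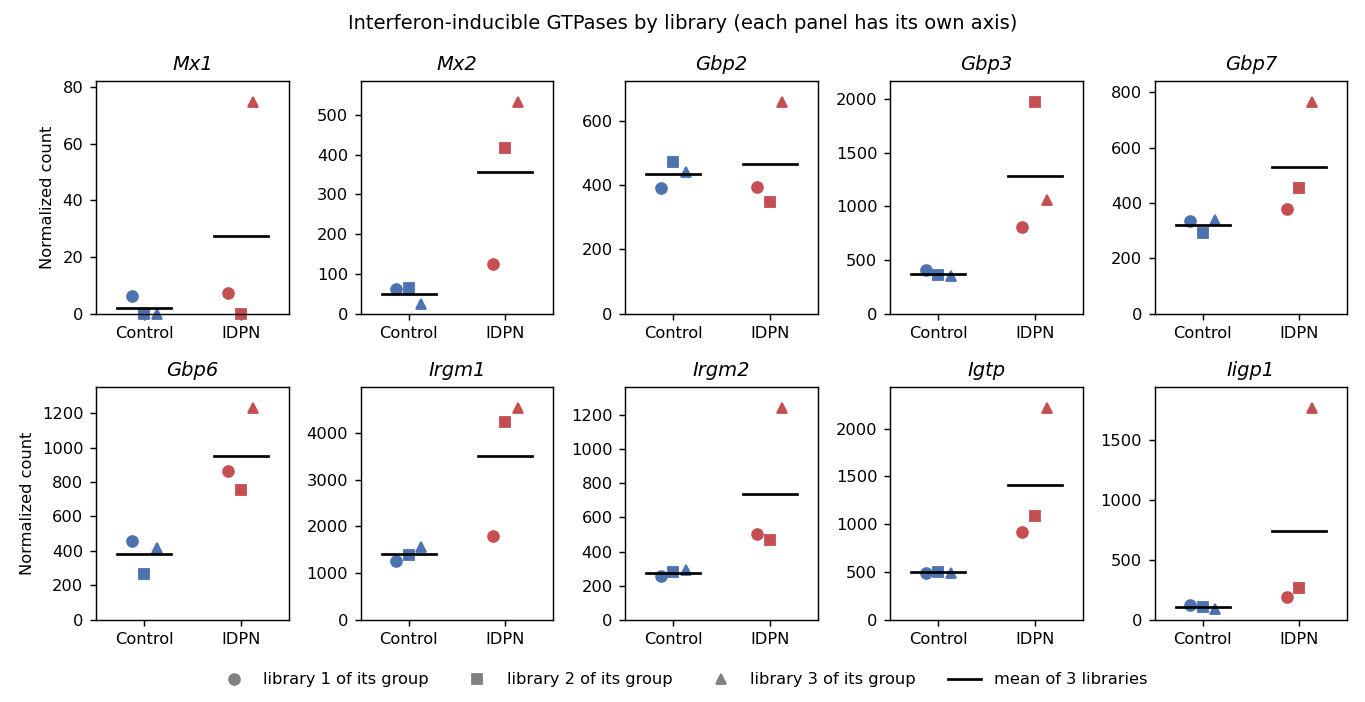
Normalized counts of the 10 GTPase genes in each of 3 Control (blue) and 3 IDPN (red) libraries, with the symbol giving the library's number within its group and the black line the group mean. Each panel has its own axis from 0. Libraries of the groups overlap for Mx1 and Gbp2 only, and IDPN 3 (red triangle) is the highest library in every panel but that of Gbp3.

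The Mx genes lie side by side on chromosome 16 of GRCm38, Mx1 at 97447035 to 97462907 on the minus strand and Mx2 at 97535308 to 97560900 on the plus strand. Mx1 acts in the nucleus and Mx2 in the cytoplasm, and both are defective in most laboratory strains. The deposited table lists Mx2 (ENSMUSG00000023341.14) as a polymorphic pseudogene and Mx1 as protein-coding, and RefSeq lists both as transcribed pseudogenes. Which allele these mice carry was not analysed here. Mx2 had 63.1, 63.5 and 23.1 normalized counts in Control 1 to 3, against 124, 416 and 532 in IDPN 1 to 3. The groups did not overlap, and IDPN 1 lay well below the other two. Its log2-Fold_Change was 2.84 (SE 0.72, DESeq2 Padj = 0.0028), the highest of the 6 genes called. Without IDPN 2 the value was 2.72 and the call was lost (DESeq2 Padj = 0.0520).

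Mx1 was barely present, with normalized counts of 6.06, 0 and 0 in Control, against 7.45, 0 and 74.7 in IDPN. Only IDPN 3 stood clear of the Control animals. Its log2-Fold_Change of 3.77 therefore had an SE of 3.27 and was not called (DESeq2 Padj = 0.636).

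The GBP genes Gbp2, Gbp3 and Gbp7 lie in a cluster on chromosome 3, at 142620602 to 142638008, 142560026 to 142573209 and 142530342 to 142550149. Gbp3 (ENSMUSG00000028268.14) had 406, 362 and 351 normalized counts in Control 1 to 3, against 806, 1969.9 and 1060 in IDPN 1 to 3. The lowest IDPN animal lay well above the highest Control animal, and IDPN 2 was the highest. Its change was 1.78 on the log2 scale (SE 0.28, DESeq2 Padj = 2.53e-08). Gbp3 was the GTPase gene that kept its call in every alternative run, including a DESeq2 test against a fold change of 1.5 rather than 1 (Padj = 0.0036).

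Gbp7 missed the threshold. It had 334, 293 and 339 normalized counts in Control, against 378, 453 and 764 in IDPN, so the groups did not overlap but IDPN 1 lay close to the Control animals. Its log2-Fold_Change was 0.72 (SE 0.26, DESeq2 Padj = 0.078). It passed without IDPN 1 (0.92, Padj = 0.0222 by DESeq2), and its value was 0.37 without IDPN 3.

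Gbp2 did not separate the groups. Its normalized counts were 392, 471 and 441 in Control, against 395, 347 and 657 in IDPN. IDPN 1 and IDPN 2 lay within or below the Control range and IDPN 3 above it. The log2-Fold_Change was 0.10, with a 95% interval from -0.39 to 0.60 (DESeq2 Padj = 0.909). Gbp2 and Gbp7 carried an ISRE upstream of the RefSeq start, as did the called genes Gbp3, Igtp, Irgm1 and Irgm2. Since all 6 genes with a window held the motif, it could not separate called from uncalled genes in this set.

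Gbp6 belongs to the second GBP cluster, on chromosome 5 (105270702 to 105293698, minus strand). It had 460, 263 and 418 normalized counts in Control 1 to 3, against 864, 756 and 1228 in IDPN 1 to 3, without overlap. Its log2-Fold_Change was 1.32 (SE 0.25, DESeq2 Padj = 1.3e-05). The reads of Gbp6 cannot be cleanly assigned, since 67.2% of the 76-base windows along its transcripts also occur in another gene, mostly in Gm43302, a gene model that overlaps its exons. Gbp10, its neighbour, shared 77.6% of its windows with other genes, also mostly with Gm43302, which overlaps exons of both. Gbp6, Gbp10 and Gm43302 summed before the fit, an alternative chosen after seeing the data, gave a log2-Fold_Change of 1.52 (SE 0.24, DESeq2 Padj = 1.92e-08), with sums of 678, 440 and 657 normalized counts in Control, against 1561, 1305 and 2240 in IDPN.

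The IRG genes fall into regulators, which sit on the cell's own membranes and hold the others inactive there (Irgm1, Irgm2 and Igtp, also known as Irgm3), and effectors such as Iigp1 (Irga6), which load onto parasite vacuoles. All 3 regulators were upregulated. Irgm1 (chromosome 11, 48861968 to 48871683, minus strand) was the most abundant of the 10 genes in normalized counts, with 1267, 1378 and 1556 in Control 1 to 3. IDPN 1 was little above this range at 1793, whereas IDPN 2 and IDPN 3 had 4224 and 4525. Its log2-Fold_Change was 1.33 (SE 0.27, DESeq2 Padj = 7.24e-05), and the call was lost without Control 3 (1.41, DESeq2 Padj = 0.0578). None of its 76-base windows occurred in another gene.

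Igtp (chromosome 11, 58199556 to 58207591) had the tightest Control values of the 10 genes, 494, 503 and 494 normalized counts. The IDPN animals had 915, 1089 and 2213, all well above them. Its log2-Fold_Change was 1.5 (SE 0.28, DESeq2 Padj = 5.76e-06) and 1.01 without IDPN 3 (DESeq2 Padj = 4.48e-05). Irgm2 had 256, 282 and 294 normalized counts in Control, against 501, 469.9 and 1238 in IDPN. For Irgm2 the log2-Fold_Change reached 1.41 (SE 0.32, DESeq2 Padj = 0.000442). IDPN 1 and IDPN 2 lay close together and IDPN 3 was 2.47 times the next highest. Without IDPN 3 its log2-Fold_Change was 0.81 (DESeq2 Padj = 0.0119). The annotated span of Irgm2 (58199618 to 58222782) begins inside that of Igtp, and 7.66% of the Igtp windows and 4.66% of the Irgm2 windows were shared. The sums of the 2 genes were 750, 785 and 787 in Control, against 1416, 1559 and 3451 in IDPN.

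Iigp1 (chromosome 18, 60376027 to 60392634) was the least certain of the abundant genes. Its normalized counts were 122, 104 and 89.0 in Control 1 to 3, against 193, 263 and 1766 in IDPN 1 to 3. Every IDPN animal exceeded every Control animal, but IDPN 3 was 6.71 times the next highest. The log2-Fold_Change of 2.82 had an SE of 0.96 and missed the threshold (DESeq2 Padj = 0.0539). Without IDPN 3 the value was 1.12 with an SE of 0.32, and the gene was called (DESeq2 Padj = 0.0183). None of its windows was shared with another gene.

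**Figure D2:**
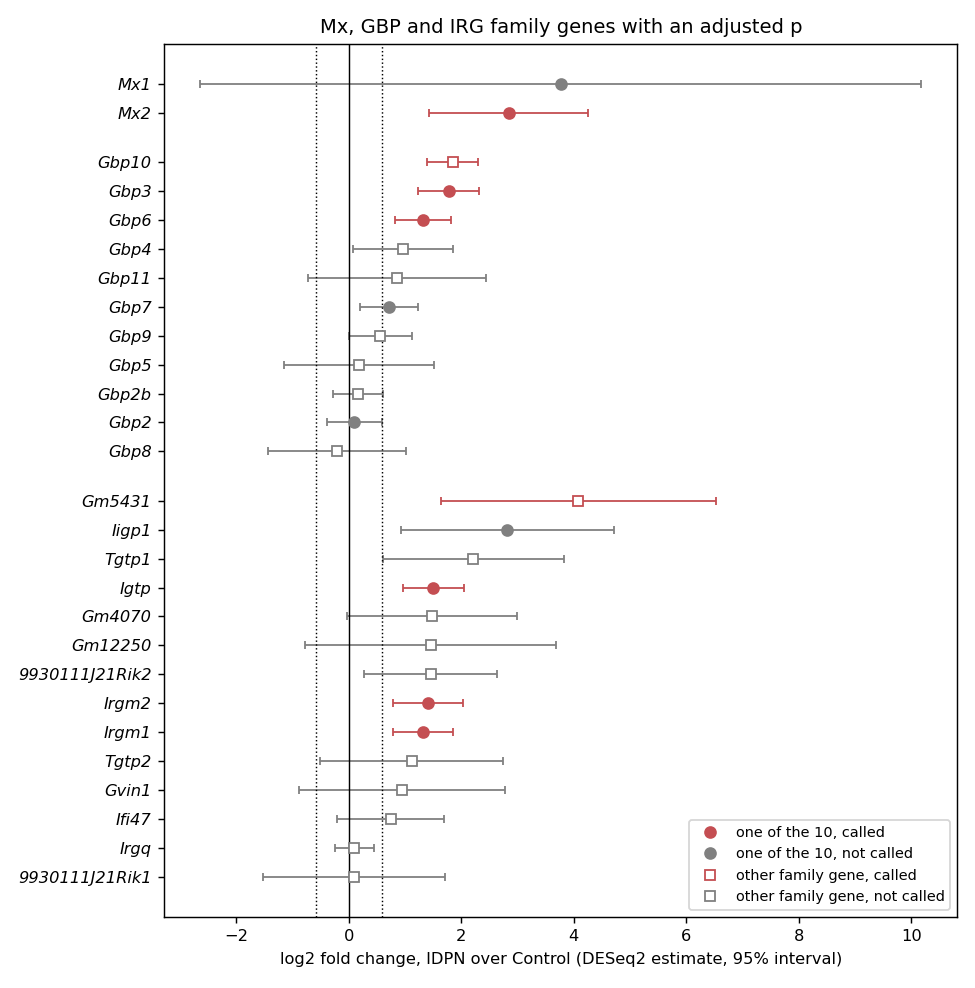
DESeq2 log2-Fold_Change of IDPN over Control with its 95% interval for each listed Mx, GBP and IRG gene with a Padj. Genes are ordered by size within their family. The IRG group includes Gvin1 and Gm4070, which are not IRGs. Circles are the 10 GTPase genes and squares other family genes, red marks genes called upregulated, and dotted lines mark a fold change of 1.5 in each direction. The interval of Mx1 runs from -2.64 to 10.2, whereas that of Gbp3 runs from 1.23 to 2.32.

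IDPN 3 was the highest IDPN animal in 9 of the 10 GTPase genes and the lowest in none. Over all genes tested it was highest in 31.7%, and over the 410 upregulated genes in 34.6%. IDPN 1 was the lowest IDPN animal in 6 of the 10 genes and IDPN 2 in 4. A high IDPN 3 was not particular to these genes. The listed type I interferon targets, described below, summed to 4167, 8577 and 17619.5 normalized counts in IDPN 1 to 3. Ifit1 held 1100, 2489 and 10042.5 of these, whereas the targets Oasl2 and Rtp4 were highest in IDPN 2. The distance between animals differed between genes. For Irgm1 and Mx2, IDPN 2 came close to IDPN 3, at 1.59 and 1.69 (Irgm1) and 3.03 and 3.39 (Mx2) on the scale of log2 ratios to the Control mean. For Iigp1 the 3 animals stood at 0.87, 1.32 and 4.06 on the same scale. The summed normalized counts of the 10 genes lay between 3720 and 4005 in Control and were 5976, 9988 and 14058 in IDPN 1 to 3. The Control animals lay close together and the IDPN animals far apart. The cause of that spread was not tested, and the title codes differed within the IDPN group but not the Control group in their beginning.

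**Figure D3:**
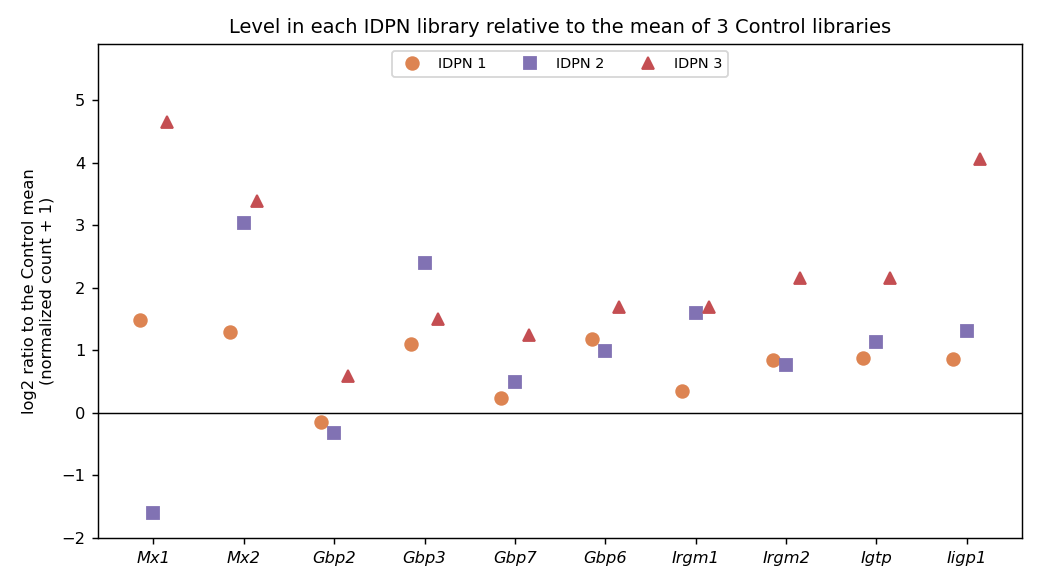
Log2 ratio of each IDPN library to the mean of the 3 Control libraries, computed as normalized count plus 1, for the 10 GTPase genes. Circles are IDPN 1, squares IDPN 2 and triangles IDPN 3. IDPN 3 reaches 4.65 for Mx1 and 4.06 for Iigp1 and stays at 0.59 for Gbp2, and IDPN 2 is above it for Gbp3 alone, at 2.40 against 1.5.

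Levels between genes were compared per length, as TPM (counts divided by exon length and scaled to the same total in each library). In Control, Igtp was at 11.8 ± 2.26 TPM and Irgm1 at 11.7 ± 3.55 (SD, n = 3 each). Gbp2 followed at 8.31 ± 1.93, Gbp3 at 5.44 ± 0.778, Irgm2 at 3.63 ± 0.936, Gbp6 at 3.09 ± 1.10 and Gbp7 at 2.76 ± 0.685 TPM. Iigp1 at 0.85 ± 0.0618, Mx2 at 0.622 ± 0.214 and Mx1 at 0.0221 ± 0.0383 TPM were the lowest. The Control ranges of Igtp, Irgm1 and Gbp2 overlapped one another, as did those of Irgm2, Gbp6 and Gbp7. The Control animals thus already carried RNA of the GBP and IRG genes. In IDPN the highest means were again Igtp (42.2 ± 20.7 TPM) and Irgm1 (35.8 ± 13), followed by Gbp3 (23.0 ± 8.11). The IDPN ranges of Igtp, Irgm1 and Gbp3 overlapped one another. Gbp2 stood at 11.4 ± 4.20, Iigp1 at 7.68 ± 9.20 and Mx2 at 5.81 ± 3.26. TPM values are shares of a library and their ratios differ from the fold changes above, which use size factors. Scaling to total counts in place of size factors moved the median gene by 0.25 on the log2 scale. All 10 log2-Fold_Change values stayed above 0 under each of the 3 size-factor scalings.

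Of 21 other genes listed as GBP or IRG genes, 17 were tested, of which 16 had a log2-Fold_Change above 0 and 1 below. Their median was 0.95, and 2 were called upregulated, against 2.32% of all genes tested. Some of these genes share most of their sequence, so they are not independent counts. Of 7 other GBP genes, Gbp10 was upregulated, with 190, 148 and 210 normalized counts in Control, against 608, 549 and 817 in IDPN. Its log2-Fold_Change was 1.85 (SE 0.23, DESeq2 Padj = 9.67e-13), subject to the sequence it shares with other genes, mostly with Gm43302. Gbp4, Gbp5, Gbp8, Gbp9, Gbp11 and Gbp2b were not called, at log2-Fold_Change values from -0.20 (Gbp8) to 0.96 (Gbp4). The median of the 7 was 0.56. Gbp2b, a close relative of Gbp2, had 377, 321 and 404 normalized counts in Control, against 429, 322 and 484 in IDPN, and overlapped between groups as Gbp2 did (0.16, DESeq2 Padj = 0.800).

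Of 14 other genes listed as IRG genes, 10 were tested and 1 was called, Gm5431. It had 0, 0 and 2.67 normalized counts in Control, against 19.0, 15.1 and 16.8 in IDPN. Its call was lost in 5 of the 6 fits with 1 library removed, the other (without Control 3) giving no Padj. The list, and the 10 tested, also held Gvin1 and Gm4070, which are very large inducible GTPases and not IRGs. Of their windows, 98.3% and 96.7% were shared, as were 75.7% and 51.9% of those of 9930111J21Rik1 and 9930111J21Rik2. Tgtp1 and Tgtp2, effector IRGs, again had IDPN 3 as their highest library, with 207, 98.4 and 553 normalized counts for Tgtp1 in IDPN against 47.3, 34.6 and 102 in Control (log2-Fold_Change 2.22, SE 0.82, DESeq2 Padj = 0.0848). The 2 genes cannot be cleanly told apart, since 77.1% of the Tgtp1 windows and 81.2% of the Tgtp2 windows were shared, and for their sum the log2-Fold_Change was 1.59 (SE 0.82, DESeq2 Padj = 0.302). Irgq, an IRG relative without known interferon response, was at 758, 721 and 948 in Control, against 860, 836 and 908 in IDPN (0.10, DESeq2 Padj = 0.860). The median of the 10 tested was 1.29. Among the 10 dynamin and atlastin genes none was called by DESeq2, 2 had an unadjusted p under 0.05 and edgeR called 0. Their median was 0.01, with Mfn1, a mitochondrial fusion GTPase, at 0.59 and Dnm3 at -0.58.

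The interferon pathway was read from lists of 62 ligands, receptors, transducers, inhibitors and target genes, of which 38 were tested. Of these, 11 were upregulated and 0 downregulated, against 2.32% and 3.42% of all genes tested. No RNA of an interferon was counted. All 21 ligand genes had 0 counts in all 6 libraries, which allows up to 0.0689 to 0.0741 CPM, counts scaled to library size (3 counts in a library). The 6 receptor genes were all present and none was called by DESeq2 (0 at an unadjusted p under 0.05, 0 called by edgeR), with log2-Fold_Change values between -0.10 (Ifnar2) and 0.27 (Ifnlr1). Downstream of them, 5 of 9 transducer genes were upregulated. Among them were Stat2 (0.98) and Irf9 (1.52), whose products bind the ISRE in a complex, together with Irf7 (1.94) and Irf1 (0.90). Irf9 had 676, 728 and 819 normalized counts in Control, rising to 1393 in IDPN 1 and 2869.5 in IDPN 2, and IDPN 2, not IDPN 3, was its highest library. Irf1, which is known to drive GBP genes, had 432, 323 and 468 in Control, against 796, 552 and 934 in IDPN and lost its call without IDPN 3 (0.72, DESeq2 Padj = 0.112), without Control 2 (0.75, Padj = 0.0892) and by edgeR (adjusted p = 0.0569). Irf7 lost its call without Control 3 (1.82, DESeq2 Padj = 0.0516). The kinase genes Jak1, Jak2 and Tyk2 were not called, at -0.10, 0.38 and -0.11.

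Among 7 inhibitors of the pathway, Usp18, which blocks the type I receptor, was upregulated (log2-Fold_Change 3.21, SE 0.31, DESeq2 Padj = 1.12e-21), with 126, 99.3 and 108 normalized counts in Control, against 497, 1163 and 1419 in IDPN. Of 10 targets chosen as leaning to type I interferon, Isg15, Oas1a, Oasl1, Oasl2 and Rtp4 were upregulated, and the median was 1.85. Oas1a (1.42) lost its call by edgeR (adjusted p = 0.0589) and without Control 1, Control 2, IDPN 1 or IDPN 3 (DESeq2 Padj from 0.0527 to 0.0862). Of 9 targets chosen as leaning to interferon gamma, 6 were tested and none was called by DESeq2 (1 at an unadjusted p under 0.05, 0 called by edgeR), with a median of -0.35. The 6 tested were the class II genes Cd74 (-0.05), H2-Aa (-0.44), H2-Ab1 (-0.25) and H2-Eb1 (-0.76), their regulator Ciita (0.16) and Nos2 (-0.46). The median therefore mostly describes class II genes, and listed genes without a Padj do not enter it. Cxcl10, a chemokine from that list, received no p in DESeq2 because 1 library lay too far from the fit, with 21.5, 14.1 and 874 normalized counts in IDPN 1 to 3 against 2.43, 18.5 and 5.34 in Control. Its high library was again IDPN 3, and with that filter off it was called (log2-Fold_Change 5.12, DESeq2 Padj = 0.0463).

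**Figure D4:**
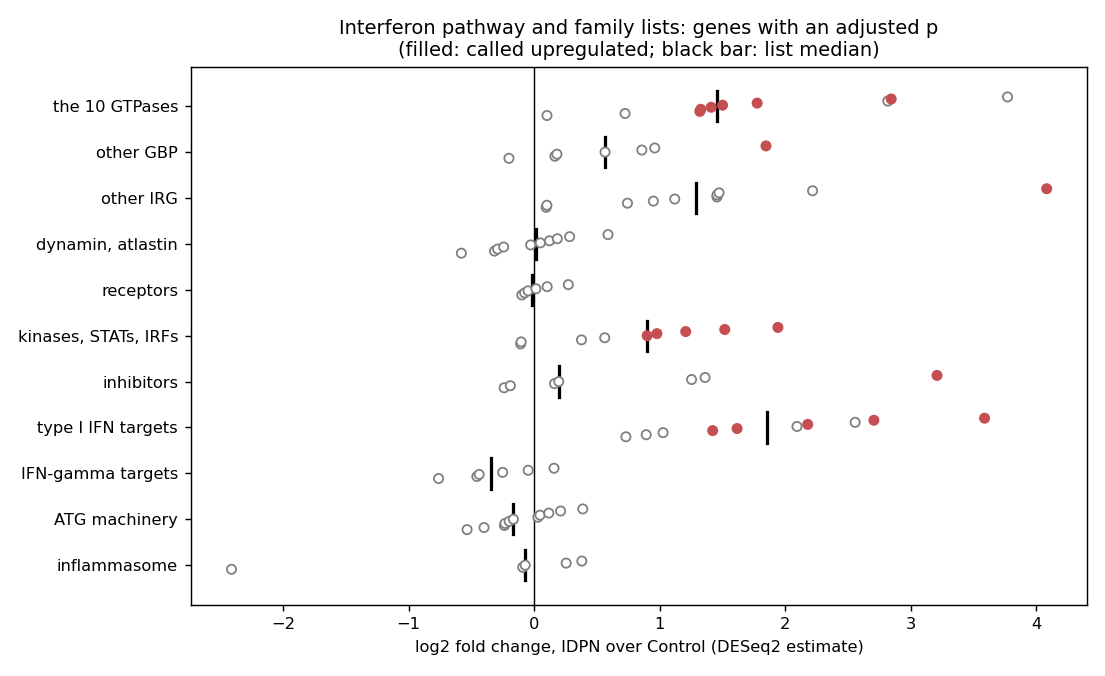
DESeq2 log2-Fold_Change of IDPN over Control for each gene with a Padj in the GTPase families, the interferon pathway lists, and the autophagy and inflammasome genes with which GBPs and IRGs are known to work. Filled red points were called upregulated, and the black bar is the list median. It is 1.45 for the 10 GTPase genes, 0.90 for the transducers, 1.85 for the type I targets and -0.35 for the interferon gamma targets. The interferon gamma targets shown are mostly class II genes.

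Genes that GBPs and IRGs are known to work with did not pass the test. The ATG conjugation machinery, which brings these GTPases to membranes, had 0 of 11 genes called by DESeq2 (2 at an unadjusted p under 0.05, 0 by edgeR), with Atg5 at 0.03, Atg7 at -0.24 and Atg16l1 at 0.39. Of 8 inflammasome genes, which GBPs help to activate, 5 were tested and 0 were called (1 at an unadjusted p under 0.05, 0 by edgeR). Casp4, the sensor of bacterial lipopolysaccharide, was at 48.5, 9.23 and 46.3 normalized counts in Control, against 0.828, 2.01 and 16.8 in IDPN (log2-Fold_Change -2.41, SE 0.92, DESeq2 Padj = 0.101).

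Among markers of other cell types, the macrophage and supporting cell sums did not overlap between the groups, and the other sums below did. Lyz2 made up most of the macrophage sum, so its separation need not hold for the other macrophage genes. The part of these cell types in the GTPase changes was not tested. Over all genes tested, 2.32% were upregulated and 3.42% downregulated, and in 11.1% every IDPN animal exceeded every Control animal. Of 15 macrophage genes, 2 were upregulated (Fcgr1 and Lyz2) and edgeR called 0. Their summed normalized counts ranged from 6166 to 7909 in Control and from 8846 to 13460 in IDPN. The highest sum was in IDPN 2 and the lowest of the IDPN sums in IDPN 3, which was also the order of Lyz2. For Lyz2 alone the IDPN animals had 5878, 9133 and 5825, where the Control animals had 3850, 4597 and 3735. Of the 15, 13 had a log2-Fold_Change above 0, with a median of 0.56, and in 6 every IDPN animal exceeded every Control animal, among them Lyz2 (0.77), Cd68 (0.79) and Mrc1 (0.55), while Csf1r, a defining macrophage gene, was at -0.01. Of 12 lymphocyte genes, 2 were tested and 0 called by DESeq2 (edgeR 0; of the 12, Klrb1c and Cd8a had an unadjusted p under 0.05), and the sums ran from 159 to 270.5 in Control and from 143 to 179 in IDPN. Gzma, Gzmb and Nkg7 were at 0 in all 6 libraries and Cd3e at no more than 1.87 normalized counts. Cd79a had 226, 224 and 124 in Control, against 135, 111 and 164 in IDPN, and Klrb1c 32.7, 33.5 and 28.5, against 9.93, 13.1 and 4.67 (DESeq2 Padj = 0.0737). Red cell genes, 4 of 5 upregulated, summed to between 16167 and 36635 in Control and 34689 and 49091 in IDPN, and edgeR called 0 of them. Of 7 supporting cell genes, 6 had a log2-Fold_Change below 0 and Gjb6 (-0.94) and Sparcl1 (-0.59) were downregulated (edgeR 0), and the sums ran from 400441 to 611793 in Control and from 304069 to 369597 in IDPN. All 6 stroma genes were above 0 and none was called by DESeq2 (1 at an unadjusted p under 0.05, edgeR 0), with sums from 20441 to 39051 in Control and from 35993 to 38675 in IDPN. Of 8 endothelial genes, Kdr was downregulated (-1.14), and the sums ran from 10022 to 14316 in Control and from 8982 to 13125 in IDPN.

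The 5 genes outside the set whose profile over the 6 libraries was most like the mean standardized profile of the 10 were Ctdsp1, Ahcyl1, BC005537, Znhit3 and Sos2, with Pearson r between 0.97 and 0.98 among 11761 candidates averaging 100 or more normalized counts. None was called, and their log2-Fold_Change values lay between 0.15 and 0.48. With 6 libraries that share 1 high animal, such values of r are a description of the order of the libraries. Among the 10 genes themselves r with the mean profile, which includes the gene, ran from 0.55 (Gbp2) to 0.99 (Igtp).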

How the data were processed

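The authors aligned paired reads to GRCm38 with STAR 2.5.3a and quantified genes with RSEM 2.3.0 against GENCODE gene models. The deposited values are RSEM estimated counts (expected counts) for each library, given as whole numbers, without normalization or a filter. RSEM divides reads that match several genes between them, and the libraries (SMART-seq2, oligo-dT primed, without molecular identifiers) are not stated to keep strand, so near-identical and overlapping genes have an uncertain split and counting error understates the true error. The reference genome is that of C57BL/6J, not of the strain used, and reads from differing alleles may be lost. The Control animals have title codes with a common beginning that no IDPN animal has, which cannot be told apart from treatment.

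DESeq2 1.42.0 in R 4.3.3 (Wald test, median-of-ratios size factors, no covariate) was fitted to all genes and a call needed Padj under 0.05 and a fold change above 1.5. Alternatives were edgeR 4.0.16, total-count and TMM size factors, a filter of at least 10 counts in 3 libraries, no independent filtering, no Cook filter, a test against a fold change of 1.5, each library left out, and near-identical genes summed (chosen after seeing the data). All 10 genes were named. Listed genes could be named from a mean normalized count of 10 upward, and the genes of like profile were the 5 with the highest r. Gm5431, Fcgr1, Gm43302, Casp4, Cd3e, Cd8a, Ciita, Gzma, Gzmb and Nkg7 were also named. Some of them lay below that level and were chosen after their values were seen. The members and lists were chosen with earlier results of these data known. Coordinates, exon lengths and shared 76-base windows came from GENCODE M21 on GRCm38, later than the authors' release, and promoters from RefSeq. Exact permutation of 3 against 3 libraries cannot give p under 0.10, so no such test is given. The fitting code was tested on simulated data. A listed gene is not reported here.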

Additional observations from a re-analysis of the deposited data

How the results depend on the processing

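The 10 GTPase genes had 6 calls with the design as reported, 5 by edgeR, 8 with total-count size factors, 7 with the low-count filter, 1 (Gbp3) when tested against a fold change of 1.5, and between 5 and 8 when a library was left out. That test also left 1 of the other GBP and IRG genes in place of 2 and 6 pathway genes in place of 11. Leaving out a library gave 1 to 3 other GBP and IRG genes and 9 to 13 pathway genes. The direction reversed once, for Gbp2 without IDPN 3 (-0.23, DESeq2 Padj = 0.735; range 0.27 to -0.23 over the libraries left out). Gbp7 was also called with total-count size factors (0.97, DESeq2 Padj = 0.0349). Iigp1 was called with total-count size factors (3.10, DESeq2 Padj = 0.0335), with the low-count filter (Padj = 0.0495), without IDPN 1 (3.28, Padj = 0.0124), without IDPN 2 (3.22, Padj = 0.0418) and without IDPN 3 (1.12). Iigp1 stayed uncalled by edgeR (adjusted p = 0.0742), with TMM size factors (DESeq2 Padj = 0.0510) and with no independent filtering (Padj = 0.0777). The same held without Control 1, Control 2 or Control 3 (DESeq2 Padj = 0.192, 0.232 and 0.145). The cause of these changes was not tested. Mx1 was at 0 counts in 3 libraries, and the effect of depth on the other genes was not tested. No paired analysis was possible because the labels give no replicate numbers that the groups share.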
